A study of Mus musculus with 2 samples.

Results

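The Tbx21 and Eomes loci of mouse natural killer (NK) cells were described by the Runx3 peaks that lie in them. Tbx21 encodes T-bet and Eomes encodes eomesodermin, a pair of T-box transcription factors. Peaks were taken from the authors' deposited list when their midpoint fell in chr11:96900000-97050000, the 150 kb window assigned to Tbx21, or in chr9:118300000-118480000, the 180 kb window assigned to Eomes, both on mm9. The Tbx21 window held 18 peaks and the Eomes window held 12, together 30 of the 19647 peaks listed. The members were chosen by peak position in this same list, and the loci were picked with its contents known, so their counts and spacing are a description and carry no test.

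The list comes from chromatin immunoprecipitation sequencing (ChIP-seq) of splenic NK cells of wild-type ICR mice. All mice had received 2 injections of IL-15 complexed with its receptor alpha chain, given 2 days apart, and no untreated group was used here. NK cells were enriched by negative selection and sorted for the NK cell receptor NKp46, and 40000000 cells were used. No RNA was measured, so the cell type could not be checked against its markers. Runx3 was precipitated with a polyclonal antibody made in-house, and non-immune rabbit serum (NIS) served as the control. There was 1 library per antibody, so no value below has a replicate. The list gives positions only, without a score or a read count. Its deposited name ends in "to small", which no source at hand explains, so it may be a reduced set, and every count, gap and rank below refers to the peaks listed. The depth behind a peak is therefore unknown, and no peak could be ranked by its strength. The control library was not used directly for any value below, and whether it was used in calling the listed peaks is not stated.

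T-bet and eomesodermin bind related T-box motifs in DNA and are needed for NK cell development and maturation. T-bet drives terminal maturation and interferon gamma production, and eomesodermin supports the lineage of circulating NK cells and their cytotoxic genes. Runx3 belongs to the Runt-domain family, whose members bind DNA as partners of Cbfb, and in T helper cells it is known to act together with T-bet. IL-15 is the cytokine on which NK cell survival and proliferation depend.

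The sequences directly before the annotated start of each gene are shown because they are the reference for the promoters of both loci. They are the RefSeq sequences of GRCm38.p6, 250 bases on the strand of the gene from 5′ to 3′, with both genes matched by symbol. Capitals mark the letters TGTGG, the core of the motif that Runx proteins bind, or its reverse complement CCACA.
Tbx21: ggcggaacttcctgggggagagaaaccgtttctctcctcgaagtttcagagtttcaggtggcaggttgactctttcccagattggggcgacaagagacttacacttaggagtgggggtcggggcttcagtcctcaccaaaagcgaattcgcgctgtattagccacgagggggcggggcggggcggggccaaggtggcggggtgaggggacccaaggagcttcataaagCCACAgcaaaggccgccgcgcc
Eomes: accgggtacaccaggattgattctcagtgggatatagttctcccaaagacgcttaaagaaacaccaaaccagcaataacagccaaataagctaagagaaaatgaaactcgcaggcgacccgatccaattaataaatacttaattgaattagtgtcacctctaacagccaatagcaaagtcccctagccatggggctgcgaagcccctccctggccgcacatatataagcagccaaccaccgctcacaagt

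The Tbx21 sequence held 1 match to TGTGG on either strand, beginning at position -22 from the start of the gene, and the Eomes sequence held 0. Of the 32851 mouse sequences of this length before a gene start, 49.3% held at least 1 such match, so a single match is common. The longer form TGTGGT, or ACCACA, which contains TGTGG, was in neither sequence and in 14.0% of all. These matches are descriptions of the letters in these windows and not binding sites. The peaks are on another build than these sequences, so whether a peak covers either promoter was not analysed here.

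In GRCm38.p6, the protein-coding genes on either side of Tbx21 are Osbpl7, which encodes an oxysterol-binding protein, and Tbkbp1, which encodes a partner of the kinase TBK1. The nearest named protein-coding neighbours of Eomes are Cmc1, which encodes a mitochondrial protein, and Golga4, which encodes a golgin. The windows may reach into such neighbours. Peaks are therefore described by window and were not assigned to a gene.

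With neighbouring midpoints at most 10 kb apart, Runx3 peaks at Tbx21 lay mostly in 1 long chain, whereas those at Eomes lay in smaller groups. The Tbx21 window held 12 peaks per 100 kb (exact 95% Poisson interval 7.11 to 19.0), which was 8.57 times the mean of chromosome 11, 1.40 per 100 kb. The Eomes window held 6.67 peaks per 100 kb (3.44 to 11.6), 7.41 times the mean of chromosome 9, 0.900 per 100 kb. The intervals of the densities overlapped between the loci. They cover counting error only, treat peaks as independent and take no account of the choice of the loci.

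**Figure D1:**
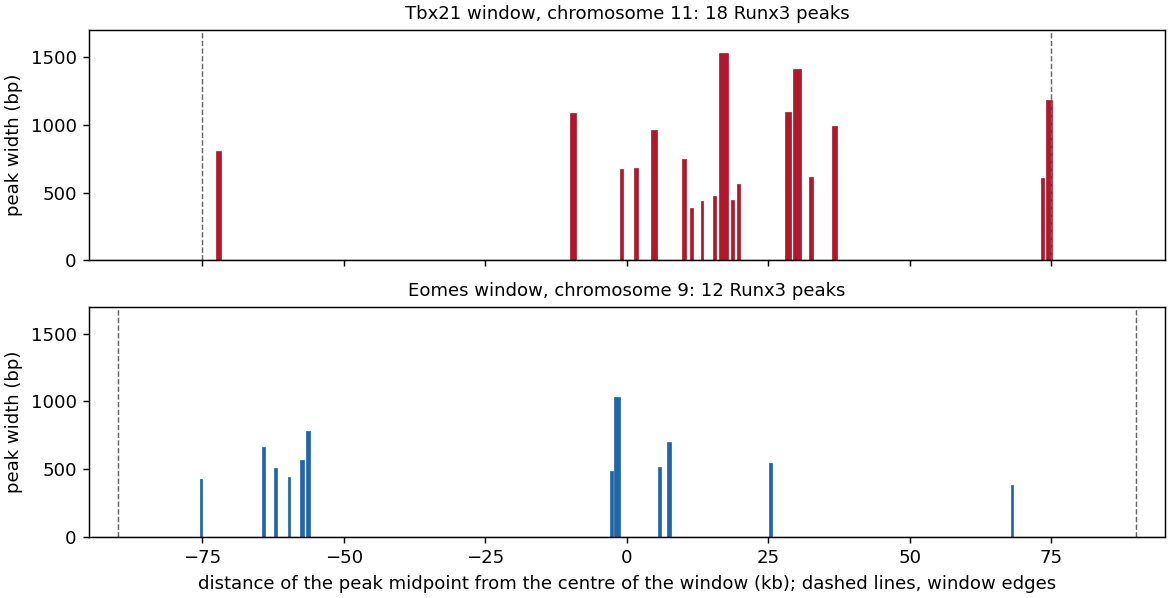
Runx3 peaks in the Tbx21 window (top) and the Eomes window (bottom). The horizontal axis is the distance of the peak midpoint from the centre of the window in kb, each bar is 1 peak drawn to scale, its height is its width in bp, and dashed lines mark the window edges. With neighbouring midpoints at most 10 kb apart, 15 of 18 Tbx21 peaks lie in 1 run between -9.54 and 36.7 kb. At Eomes a group of 5 and a group of 4 are separated by 53.7 kb.

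At Tbx21, 15 of the 18 peaks were joined into a single stretch, chr11:96964916-97012181, in which no neighbouring midpoints lay more than 10 kb apart. The stretch was 47.3 kb long, and 25.6% of it lay under peaks. With a limit of 5 kb in place of 10 kb, the longest run at Tbx21 held 7 listed peaks. The longest run at Eomes held 5 listed peaks with either limit. When gaps of up to 1000 bp were joined first, the longest run within 10 kb at Tbx21 was 7 joined regions, made of 11 listed peaks. At Eomes it was 4 joined regions, made of 5 listed peaks. The difference between the loci in longest run was thus smaller with 5 kb and after joining. With a limit of 20 kb it was nearly kept, with 15 listed peaks at Tbx21 and 6 at Eomes. The other 3 peaks of the Tbx21 window stood at its ends. A peak of 810 bp (chr11:96902416-96903225) lay 62.6 kb before the stretch, and a pair lay 36.7 kb after it.

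The stretch began with a peak of 1088 bp (chr11:96964916-96966003), whose midpoint lay 8.57 kb from the next. The 3 peaks that followed were 676 bp (chr11:96973693-96974368), 679 bp (chr11:96976212-96976890) and 959 bp (chr11:96979290-96980248) wide. They lay 2.52 to 5.31 kb from the following peak.

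In the middle of the stretch, 7 peaks followed each other with neighbouring midpoints 1.02 to 2.11 kb apart. The first of them were 746 bp (chr11:96984709-96985454), 388 bp (chr11:96986210-96986597), 438 bp (chr11:96988126-96988563) and 472 bp (chr11:96990219-96990690) wide. The last were 1533 bp (chr11:96991375-96992907), 448 bp (chr11:96993506-96993953) and 561 bp (chr11:96994466-96995026) wide. This part held both the narrowest peak of the window, 388 bp, and its widest, 1533 bp. Of all peaks on chromosome 11, 3.55% were narrower than the 388 bp peak and 98.5% were narrower than the 1533 bp peak.

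After a step of 8.79 kb, the largest within the stretch, 4 peaks closed it. The peak of 1099 bp (chr11:97002990-97004088) was separated from the next, of 1410 bp (chr11:97004433-97005842), by a gap of 344 bp, the smallest gap in the stretch. Peaks of 616 bp (chr11:97007154-97007769) and 995 bp (chr11:97011187-97012181) followed. Of these 4 peaks, 3 were each wider than at least 88.6% of the peaks on the chromosome.

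The pair at the high end of the window consisted of a peak of 604 bp (chr11:97048127-97048730) and one of 1182 bp (chr11:97049007-97050188), 276 bp apart. The second runs past the edge of the window, and its midpoint lies 0.403 kb inside. The nearest peak outside the high edge was 866 bp wide and lay 91.9 kb beyond it, and the nearest outside the low edge was 549 bp wide and lay 12.4 kb before it. The first peak inside the low edge was 2.82 kb from it.

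Runx3 peaks at Eomes were split into separate groups. A single peak of 424 bp (chr9:118314511-118314934) was followed, 11.1 kb on, by 5 peaks in 8.48 kb (chr9:118325467-118333949). The peaks of this group were 661, 506, 439, 568 and 782 bp wide, with 0.911 to 2.42 kb between neighbouring midpoints, and 34.8% of the group lay under peaks. None of its peaks reached 1000 bp.

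The second group at Eomes lay 53.7 kb further on, close to the centre of the window, and held 4 peaks in 10.8 kb (chr9:118387052-118397846). Its first peaks, of 489 bp (chr9:118387052-118387540) and 1031 bp (chr9:118387690-118388720), were 149 bp apart, the smallest gap at either locus. The 1031 bp peak was the widest of the Eomes window, and 91.7% of the peaks on chromosome 9 were narrower. The other 2 peaks of the group, 516 bp (chr9:118395526-118396041) and 700 bp (chr9:118397147-118397846) wide, lay 7.58 kb beyond.

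Beyond these groups the peaks of the Eomes window stood alone. One of 542 bp (chr9:118415076-118415617) lay 17.9 kb after the second group. The last, of 380 bp (chr9:118457806-118458185), lay another 42.6 kb on and was the narrowest at either locus, with 3.04% of the peaks on chromosome 9 narrower.

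The windows differed in what lay beyond them. After the last Eomes peak no Runx3 peak was listed for 773 kb, and the next, 1263 bp wide, lay 752 kb past the window edge. Of the 1085 gaps between peaks on chromosome 9, 38 (3.50%) were at least as long, and the median gap was 24.1 kb. On the low side the nearest peak outside, 791 bp wide, lay 16.0 kb from the edge, and the first peak inside was 14.7 kb from it.

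**Figure D2:**
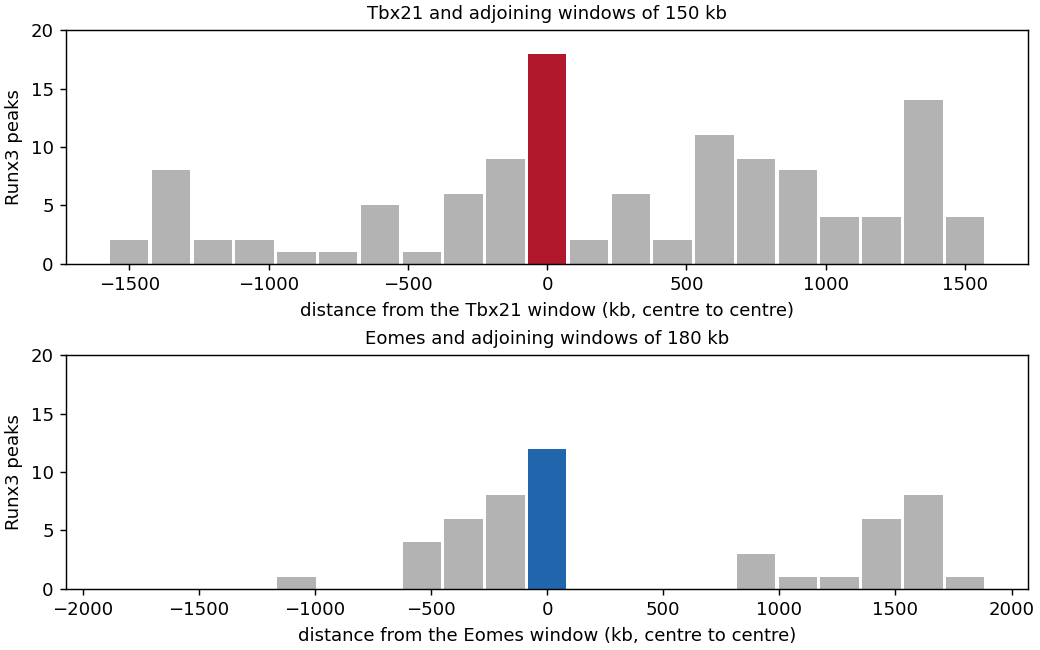
Number of Runx3 peaks in the Tbx21 window (top) and the Eomes window (bottom), coloured, and in the adjoining windows of the same size, grey. The horizontal axis is the distance between window centres in kb. The 10 nearest windows hold 1 to 11 peaks around Tbx21, below its 18, and the 4 windows directly above Eomes hold 0.

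Close to Eomes, more peaks were listed on the low side than on the high side, with 18 in the 5 windows below it and 3 in the 5 above. The windows directly below it held 8, 6 and 4 peaks, in order of distance, and each of the 4 directly above held 0. Over 10 windows on each side the counts were 19 below and 20 above, as windows further above held up to 8 peaks. Around Tbx21 peaks were listed on both sides: the 5 windows below held 9, 6, 1, 5 and 1 peaks with distance, and the 5 above held 2, 6, 2, 11 and 9. The 10 windows nearest to Tbx21 held 52 peaks in all, with a median of 5.5, and the 10 nearest to Eomes held 21, with a median of 0.

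The loci were then set beside windows of equal size on the same chromosome, tiled end to end so that the locus was one of them. Of 790 windows of 150 kb on chromosome 11, the Tbx21 window alone held 18 or more peaks, which is 0.127% of the windows. The median window held 1 peak, 368 windows (46.6%) held 0, and the next highest held 16. By the bases under peaks the Tbx21 window also ranked first, with 9.68% of it covered against 0.334% in the median window (0.127% of windows were covered as much).

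This rank depended on where the windows begin. When windows of 150 kb started every 10 kb, 18 or more peaks were also found in 2 other regions of chromosome 11, with at most 18 peaks between 68790000 and 68970000 and at most 20 between 83320000 and 83490000. The Tbx21 region reached 18. Tiles on all 20 chromosomes with at least 18 peaks numbered 15 of 16998 (0.0882%).

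Among tiled windows, the Eomes window ranked lower on its own chromosome. Of 669 windows of 180 kb on chromosome 9, 6 (0.897%) held 12 or more peaks: 1 held 17, 2 held 13, and Eomes was among the 3 that held 12. The median window held 0 peaks, and 358 windows (53.5%) held none. Peaks covered 3.91% of the Eomes window, and 8 windows (1.20%) were covered as much. With windows starting every 10 kb, 12 separate regions of chromosome 9 reached 12 peaks, that of Eomes included. A window moved toward lower positions raised the highest count around Eomes to 16. The highest count away from Eomes was 17, so this rank too depended on where the windows begin. Tiles on all 20 chromosomes with at least 12 peaks numbered 135 of 14160 (0.953%).

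**Figure D3:**
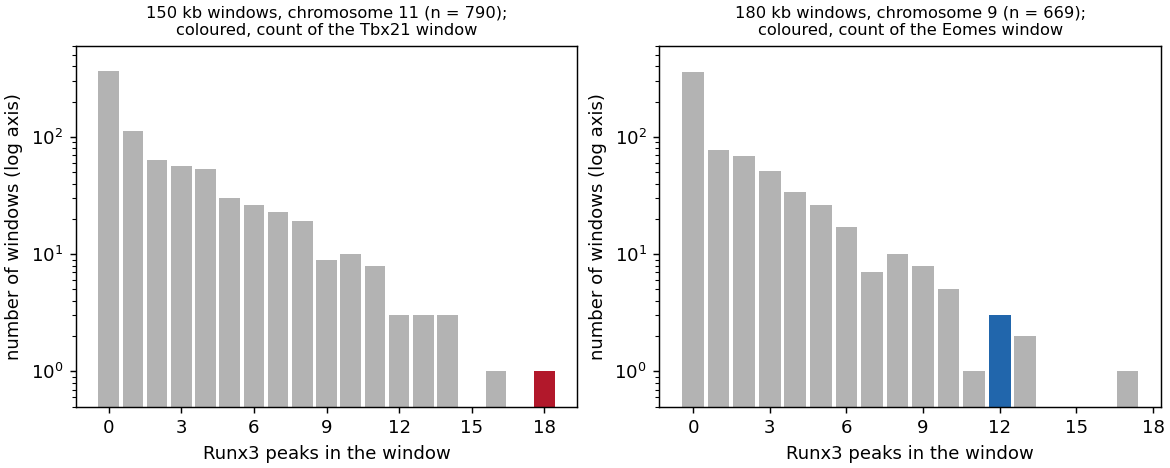
Number of windows (vertical, log axis) by the number of Runx3 peaks they hold (horizontal), for 790 windows of 150 kb on chromosome 11 (left) and 669 windows of 180 kb on chromosome 9 (right). The coloured bars mark the counts of the loci, 18 for Tbx21, reached by 1 window, and 12 for Eomes, shared by 3 windows.

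Peaks were spaced closely at both loci. The median distance between neighbouring midpoints was 2.32 kb at Tbx21, against 17.9 kb over chromosome 11, and 2.42 kb at Eomes, against 24.8 kb over chromosome 9. At Tbx21 15 of 17 neighbouring pairs (88.2%) lay at most 10 kb apart, against 37.1% on the chromosome, and at Eomes 7 of 11 (63.6%), against 31.1%. A window chosen for holding many peaks has close peaks by that choice, so these shares are no separate result.

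The stretches themselves were compared with others of 5 or more peaks, which are dense by the same definition. Chromosome 11 held 27 of them, and the Tbx21 stretch was the largest with 15 peaks, the next holding 12. Its median spacing, 2.22 kb, was within the range of 1.06 to 6.35 kb of the 27, whose median was 3.05 kb. Its share under peaks, 25.6%, was close to their median of 24.0% (range 13.5 to 39.3%). Of the 27 stretches, 18 were spaced as widely or more widely and 12 were covered as much, both counts including that of Tbx21. At the limit of 10 kb, the stretch was thus first by number of peaks and inside the range of the others by spacing and coverage. Its rank on the chromosome with a limit of 5 kb or after joining gaps was not analysed.

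The group of 5 at Eomes was among the 19 stretches of 5 or more peaks on chromosome 9, whose largest held 12. Its median spacing of 2.22 kb lay within their range of 1.06 to 8.33 kb. Its share under peaks, 34.8%, was reached by 4 of the 19, itself included, against a median of 20.6%.

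Peak width was not used to choose the loci, and the median widths of the loci lay on opposite sides of those of their chromosomes. The median width was 712 bp at Tbx21 (range 388 to 1533 bp, 95% order-statistic interval 561 to 1088 bp, n = 18 peaks), against 613 bp on chromosome 11. At Eomes it was 529 bp (range 380 to 1031 bp, interval 439 to 700 bp, n = 12 peaks), against 611 bp on chromosome 9. Both intervals contained the median of their chromosome and overlapped each other. Peaks of 1 library are not replicates, so no test was made.

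At Tbx21 5 of 18 peaks (27.8%) were wider than 1000 bp, against 11% on chromosome 11, while 8 exceeded the upper quartile of the chromosome, 786 bp, and 4 were below its lower quartile, 512 bp. At Eomes 1 of 12 (8.33%) was wider than 1000 bp, against 9.30% on chromosome 9, while 5 were narrower than the lower quartile of the chromosome, 516 bp, and 2 exceeded its upper quartile, 779 bp. Among peaks at or above the median width of the whole list, 604 bp, 13 remained at Tbx21 and 4 at Eomes. With such peaks alone the Tbx21 window was again reached by 0.127% of windows, whereas 7.32% of the windows on chromosome 9 held as many as Eomes.

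**Figure D4:**
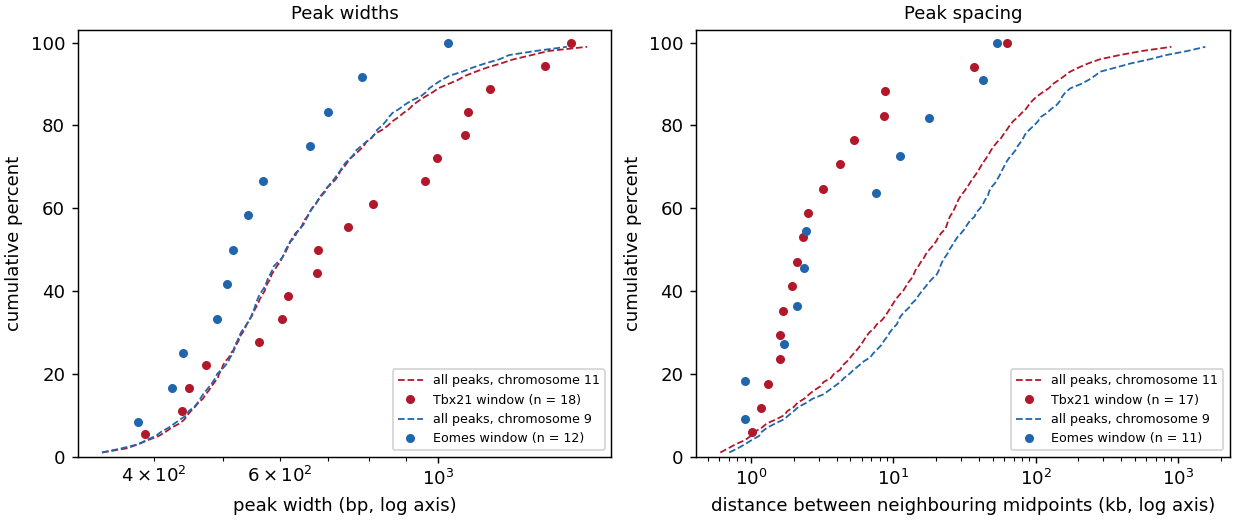
Cumulative percent of peak widths in bp (left) and of distances between neighbouring midpoints in kb (right), both on log axes. Points are the peaks or neighbouring pairs of the Tbx21 window (red) and the Eomes window (blue), and dashed lines are all peaks of chromosomes 11 and 9. Tbx21 peaks lie mostly to the right of the chromosome in width (median 712 bp) and Eomes peaks mostly to the left (529 bp), and both lie to the left in spacing.

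Some peaks were so close that they could be parts of 1 region. At Tbx21 6 of 17 gaps were shorter than 1000 bp, at Eomes 2 of 11 were, and 0 at either locus were shorter than 100 bp. The share of such gaps over each chromosome was not analysed, so the usual share is not known. The midpoints of these pairs lay 1.02 to 1.69 kb apart at Tbx21 and 0.909 to 0.911 kb apart at Eomes. Of all neighbouring pairs, 10% lay at most 1.71 kb apart on chromosome 11 and at most 1.84 kb apart on chromosome 9. Close pairs go with the choice of dense windows, so they are no separate result. When gaps of up to 1000 bp were joined, Tbx21 held 12 regions and Eomes 10. The largest joined region, chr11:96990219-96995026, was 4808 bp wide and took in 4 peaks from the middle of the Tbx21 stretch. After this joining, 0.380% of the windows on chromosome 11 held as many regions as Tbx21, and 0.747% of those on chromosome 9 as many as Eomes.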

How the data were processed

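Runx3 occupancy was measured by ChIP-seq in 1 library, with 1 control library made with NIS. Per the labels' protocols, the cells were fixed in 1% formaldehyde, sonication gave fragments near 200 bp, and ELAND aligned the 50 bp reads. The submitters' processing notes name CASAVA 1.8.2 and mm9. Which caller made the peaks, at what threshold and with what use of the control is stated in none of the sources at hand. The deposited list holds chromosome, start and end, with starts counted from 0 and printed here counted from 1. Its name holds the words "to small", so whether it is complete or reduced is unknown. Depth is unknown.

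Counts, widths and distances were computed with Python 3.11.15, numpy 2.4.6 and scipy 1.17.1. Window counts, stretches, joining and covered bases were checked on simulated lists with planted peaks. Equal windows were tiled from the first to the last peak of a chromosome. The loci, windows and measures were chosen with earlier results of these data known. Every peak in either window is described, the 5 of the first Eomes group by their widths and 1 shared range. No genome or annotation of mm9 was used, so motifs in peaks, distances to genes, and the planned counts at other NK cell genes and at T-box targets were not analysed here. No test was made: alternatives were overlap, joined gaps, wider peaks, other windows and other distances.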

Additional observations from a re-analysis of the deposited data

How the results depend on the processing

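Of 26 alternatives to 8 values, 22 stayed within 1.5 times the count or within the interval of the value. This tally does not measure stability. Joining gaps of up to 100 bp could not change a count, as 0 gaps were that short. The 12 joined regions at Tbx21, against 18 peaks, lay just at the limit. For the window shares the intervals were wide, 0.00320 to 0.703% at Tbx21 and 0.330 to 1.94% at Eomes. A Tbx21 share of 0.380% against 0.127% thus counted as within. The largest stretch at Tbx21, 15 peaks, was 7 listed peaks with neighbours at most 5 kb apart. After joining gaps of up to 1000 bp it was 7 joined regions, made of 11 listed peaks, since joining moved a pair of midpoints to 11.8 kb apart. At Eomes, restricting the list to peaks no narrower than its median left 4 of 12, and the share of equal windows with as many peaks rose from 0.897% to 7.32%. The share for Tbx21 was between 0.0844% and 0.380% in its alternatives. The planned RUNX motif share of the peaks needs an mm9 genome and was not run here. No paired analysis was possible because there is 1 library per antibody. The list gives no read depth, so sites below the unknown calling threshold are not seen.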
